A study of Mus musculus with 2 samples.

Results

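The common gamma chain, encoded by Il2rg, is shared by the receptors for a family of cytokines that includes interleukin-15. The genes described here are the cytokine gene Il15 and 6 receptor chain genes, Il15ra, Il2rg, Il4ra, Il13ra1, Il7r and Il21r. They were chosen by gene symbol, and all 7 symbols were found, each with 1 identifier, among the 55536 mouse genes of the deposited tables. The cells were primary macrophages grown from the bone marrow of C57BL/6J mice, with no genetic change given, treated at 100 ng/ml for 120 minutes. The labels give 2 names for the stimulus: lipid A, the part of bacterial lipopolysaccharide that Tlr4 senses, in the free text, and lipoprotein A, entered as a protein, in the fields for treatment and source. Sex and age were not collected. The series holds 1 group of 2 polyA RNA-seq libraries, called biological replicates 1 and 2. Both point to a single donor record, so that separate animals are not stated and the spread between the libraries may be technical. No unstimulated library was analysed here. Each value is therefore a level in stimulated cells, with no comparison of conditions and no p-value.

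The receptors for interleukins 4, 7 and 21 each join a chain that binds the cytokine and carries the kinase Jak1 to the common gamma chain, which carries Jak3. The interleukin-15 receptor adds another chain: Il15ra binds the cytokine, and Il2rb carries Jak1 beside the common gamma chain. The kinases phosphorylate STAT factors, chiefly Stat5 for interleukins 7 and 15, Stat6 for interleukin-4 and Stat3 for interleukin-21. Interleukin-15 is unusual in the family, since macrophages and dendritic cells hold it on Il15ra at their surface and present it to NK cells and memory T cells. Il4ra also pairs with Il13ra1 in place of the common gamma chain, which gives a receptor for both interleukin-4 and interleukin-13 on myeloid cells, and Il7r pairs with Crlf2 in the receptor for thymic stromal lymphopoietin. Several of these receptors are also known in soluble forms, made by shedding or from mRNAs that leave out the membrane-spanning part.

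The annotated transcripts of these genes differ in a few short exons, shown here because the transcript shares below turn on them. Sequences are from the transcripts of GENCODE M21 on the mouse genome build mm10, 5′ to 3′ on the gene's strand. In Il4ra (chromosome 7, 125552120 to 125579474, plus strand), the transcript Il4ra-205 carries an added exon 8 of 114 bases at 125571934 to 125572047, in a place where Il4ra-201 passes straight to its exon 8, which encodes the membrane-spanning segment. The added exon is the one known from the mRNA for the soluble mouse interleukin-4 receptor. It is read for 6 codons up to the stop codon, in capitals, so that the reading frame closes after 230 codons in place of 810.
Il4ra-205 insert: caagtaatgaaaatctgTGA
Il4ra-201 exon 8: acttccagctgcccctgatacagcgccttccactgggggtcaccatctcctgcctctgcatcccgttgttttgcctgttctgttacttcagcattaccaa
In Il2rg (chromosome X, 101264378 to 101268255, minus strand), exon 6 of Il2rg-201, 97 bases at 101265630 to 101265726, encodes the membrane-spanning segment. Il2rg-203 joins exon 5 to exon 7, the reading frame shifts, and it closes at a stop codon (capitals) after 10 more codons. A soluble common gamma chain is known from such an mRNA.
Il2rg-201 exon 6: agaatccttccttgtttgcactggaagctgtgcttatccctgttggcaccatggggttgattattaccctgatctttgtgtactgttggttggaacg
Il2rg-203 after the skip: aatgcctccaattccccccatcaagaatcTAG
Il21r (chromosome 7, 125603429 to 125633570, plus strand) has a membrane-spanning exon of the same length, 97 bases, as exon 7 of Il21r-201 at 125629738 to 125629834. Il21r-202 skips it and is read in another frame for 40 codons, to a total of 268 in place of 529, and the end of that stretch is shown with its stop codon in capitals.
Il21r-201 exon 7: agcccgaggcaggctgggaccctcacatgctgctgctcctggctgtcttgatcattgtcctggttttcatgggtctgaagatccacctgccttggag
Il21r-202 last coding stretch: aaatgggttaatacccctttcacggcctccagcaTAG
In Il15 (chromosome 8, 82331632 to 82403222, minus strand), a cassette exon of 78 bases at 82343959 to 82344036 closes the reading frame of Il15-209 after 61 codons in place of 162, at the stop codon in capitals.
Il15-209 cassette: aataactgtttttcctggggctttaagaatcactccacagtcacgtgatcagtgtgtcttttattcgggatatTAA
In Il15ra (chromosome 2, 11705290 to 11734317, plus strand), exon 2 of Il15ra-201, 195 bases at 11718264 to 11718458, encodes the sushi domain that binds interleukin-15. The capitals mark the part that is missing where the exon is shortened.
Il15ra-201 exon 2: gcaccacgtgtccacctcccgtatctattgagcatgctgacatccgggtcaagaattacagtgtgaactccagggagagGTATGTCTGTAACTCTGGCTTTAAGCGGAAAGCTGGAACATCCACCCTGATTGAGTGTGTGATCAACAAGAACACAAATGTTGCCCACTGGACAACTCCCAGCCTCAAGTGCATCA
In Il7r (chromosome 15, 9505788 to 9530176, minus strand), exon 7 of Il7r-201 lies at 9508707 to 9508782, and Il7r-204 leaves out the part in capitals, after which the frame closes at 286 codons in place of 459.
Il7r-201 exon 7: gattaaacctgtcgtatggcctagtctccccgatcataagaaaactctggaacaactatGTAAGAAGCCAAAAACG
Il13ra1 (chromosome X, 36112110 to 36171259, plus strand) has 1 annotated transcript of 424 codons. Il4ra and Il21r are neighbours, with 23954 bases between them.

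**Figure D1:**
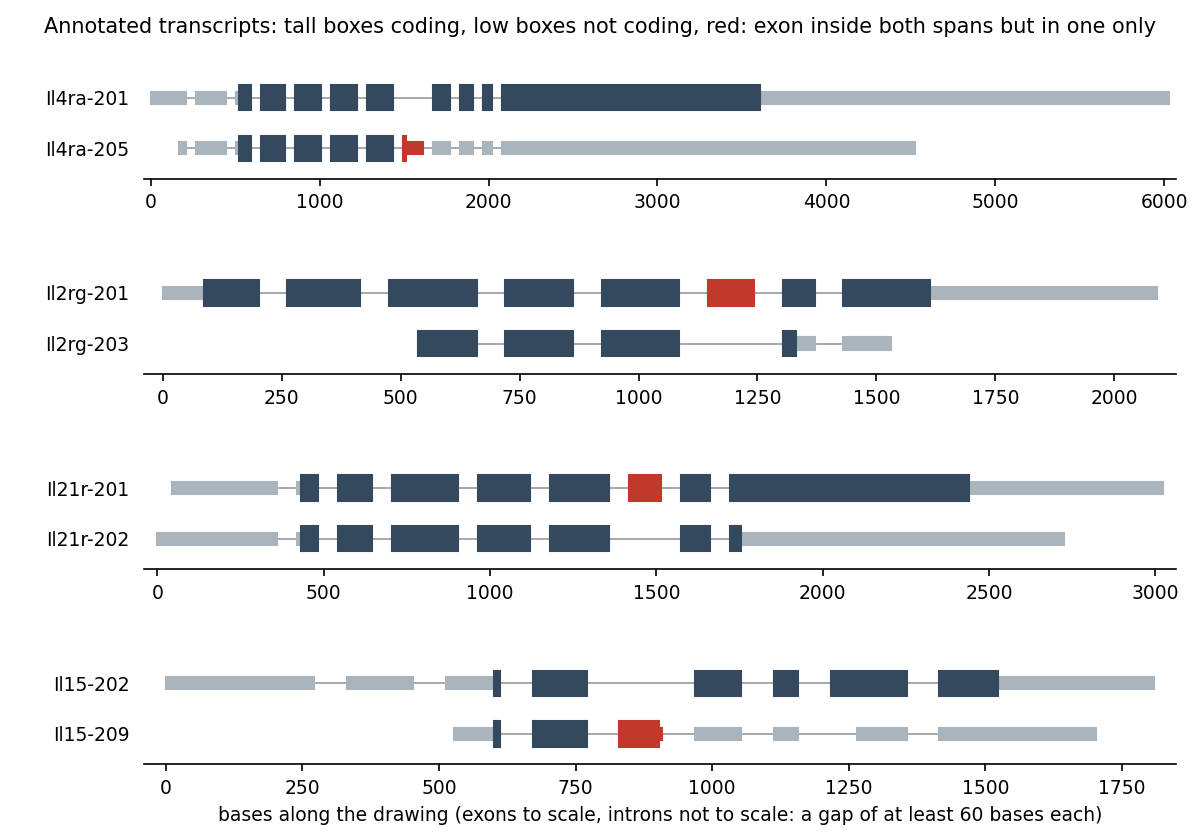
Exon maps of pairs of annotated transcripts of Il4ra, Il2rg, Il21r and Il15, with bases along the horizontal axis, exons to scale and introns shortened; tall boxes are coding and low boxes are not. Red marks an exon that lies within the span of both transcripts but belongs to one of them: the added exon of Il4ra-205 with 6 coding codons, the skipped exons of 97 bases in Il2rg and Il21r, and the cassette exon of Il15-209 with its stop codon.

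The libraries held 33319563 counts for replicate 1 and 50334059 for replicate 2, and the upper limit behind a count of 0, taken as 3 counts, was 0.0902 and 0.0597 CPM, a unit of counts per library total. Such limits and the intervals below cover counting error only. The 7 genes had between 374 and 26863 counts in a library, far above that limit. Across 12178 genes the coefficient of variation between the libraries was 21.5%. All 8 macrophage markers on the list used, led by Lyz2, Cd68 and Cd14, stood at 1 TPM or more in both libraries, TPM being the abundance per transcript length, scaled to a fixed sum per library. Markers of the lymphoid cells best known for these receptors were close to 0. No T cell marker of 9 and no NK or innate lymphoid marker of 8 reached 1 TPM in both libraries, and they summed to 1.39 and 0.56 TPM and to 0.50 and 0.23 TPM in replicates 1 and 2. The highest T cell markers were Cd247, with 17 and 25 counts, Cd3g with 3 and 0 and Cd3e with 1 and 0, and the highest NK and innate lymphoid markers were Klrb1c with 6 and 1, Ncr1 with 3 and 1 and Nkg7 with 0 and 1. Trac, Cd8a and Bcl11b were at 0 counts, as were Gzma, Prf1 and Eomes; the markers at 0 counts in this paragraph are named for that value, outside the rule for named genes. Of 8 B cell markers 1 passed, Cd79b at 2.33 and 1.38 TPM, followed by Cd79a and Pax5 under 1 TPM, with Vpreb3 and Rag1 at 0 counts, and the list summed to 2.70 and 1.49 TPM. No mast cell or basophil marker of 8 passed, Kit being the highest at 0.57 and 2.53 TPM before Gata2 and Cpa3, with Mcpt4, Tpsb2 and Ms4a2 at 0 counts and sums of 2.72 and 2.63 TPM, and 2 of 8 dendritic cell markers did, with sums of 13.5 and 7.22 TPM. The highest of the latter were Batf3 at 4.27 and 3.74 TPM, Ccr7 at 2.12 and 1.28 TPM and Siglech at 2.79 and 0.36 TPM. Granulocyte markers passed in 5 of 8 cases and summed to 562 TPM in replicate 1 against 102 TPM in replicate 2, with S100a9, S100a8 and Csf3r the highest, so that the libraries differed in them. In bulk RNA, fewer cells of a type and less RNA per cell cannot be told apart.

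The interleukin-15 gene had the highest TPM of the 7 when all of its transcripts were summed. In transcripts with the whole coding sequence, Il15 held 134 and 163 TPM in replicates 1 and 2, against 158 and 226 TPM for Il2rg. The second quantification gave these the same order, at 126 and 137 TPM against 135 and 173 TPM. The levels that follow are sums over all transcripts of a gene. Il15 stood at 222 TPM in replicate 1 and 249 TPM in replicate 2, from 3567 and 6323 counts, with a mean of 235.5 ± 18.6 TPM (SD, n = 2). Only 595 genes, Il15 included, had a mean TPM that high. Its receptor chain gene Il15ra, whose product binds interleukin-15 and presents it, stood at 96.4 and 52.2 TPM, from 2399 and 1831 counts (mean 74.3 ± 31.2 TPM, SD, n = 2). Il15ra was high in replicate 1 and low in replicate 2, and the ratio of Il15 to Il15ra in TPM was 2.31 in replicate 1 and 4.77 in replicate 2. In the second quantification Il15ra stood at 92.9 and 45.5 TPM and Il15 at 218 and 211 TPM, so that the difference in Il15ra was alike in both quantifications while Il15 was slightly higher in replicate 2 in the first and slightly lower in the second.

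Il2rg, the shared signalling chain, stood at 182 and 245 TPM, from 5148 and 10639 counts (mean 213.8 ± 44.6 TPM, SD, n = 2). Il4ra, the chain that binds interleukin-4, stood at 115 and 189 TPM, from 11024 and 26863 counts (mean 152.2 ± 52.1 TPM, SD, n = 2). Both were higher in replicate 2. Il13ra1, the alternative partner of Il4ra, was far lower, at 9.49 and 17.2 TPM from 734 and 1961 counts (mean 13.4 ± 5.46 TPM, SD, n = 2). In TPM, Il4ra exceeded Il13ra1 by 12.2 and 11.0 times and Il2rg exceeded Il13ra1 by 19.2 and 14.3 times in replicates 1 and 2, while Il4ra stood at 0.633 and 0.770 of Il2rg. The mRNA for the gamma-chain partner of Il4ra was thus the more abundant of its 2 partner mRNAs in both libraries.

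Il7r, the chain that binds interleukin-7, stood at 85.4 and 61.5 TPM, from 5847 and 5928 counts (mean 73.4 ± 16.9 TPM, SD, n = 2). Crlf2, the other chain of the thymic stromal lymphopoietin receptor, stood at 74.2 and 61.2 TPM, 0.868 and 0.995 of Il7r. The mRNAs for those chains were thus near each other in level, and Il2rg exceeded Il7r by 2.13 and 3.99 times. Il21r, the chain that binds interleukin-21, was the least abundant of the 7, at 7.88 and 12.9 TPM from 374 and 890 counts (mean 10.4 ± 3.54 TPM, SD, n = 2). Il2rg exceeded it by 23.1 and 19.1 times.

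In order of mean TPM the genes ran Il15, Il2rg, Il4ra, Il15ra, Il7r, Il13ra1 and Il21r. All 7 stood at 1 TPM or more in both libraries, a level that 18.5% of all mouse genes reached, and 3 stood at 100 TPM or more in both. Neighbours in the order had separate ranges in 2 places only, between Il4ra and Il15ra and between Il7r and Il13ra1. The genes therefore formed 3 bands in these libraries, Il15 with Il2rg and Il4ra, then Il15ra with Il7r, then Il13ra1 with Il21r, and within a band the values of neighbours overlapped. Taken library by library, neighbours kept their order in both, except that Il15ra lay above Il7r in replicate 1 and below it in replicate 2. The second quantification gave the 7 genes mean levels between 0.787 and 0.961 of these. The authors' credibility bounds describe the posterior TPM, so that a TPM can lie just outside them, as for Il2rg in replicate 1 at 182 TPM with bounds of 169 and 181.

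**Figure D2:**
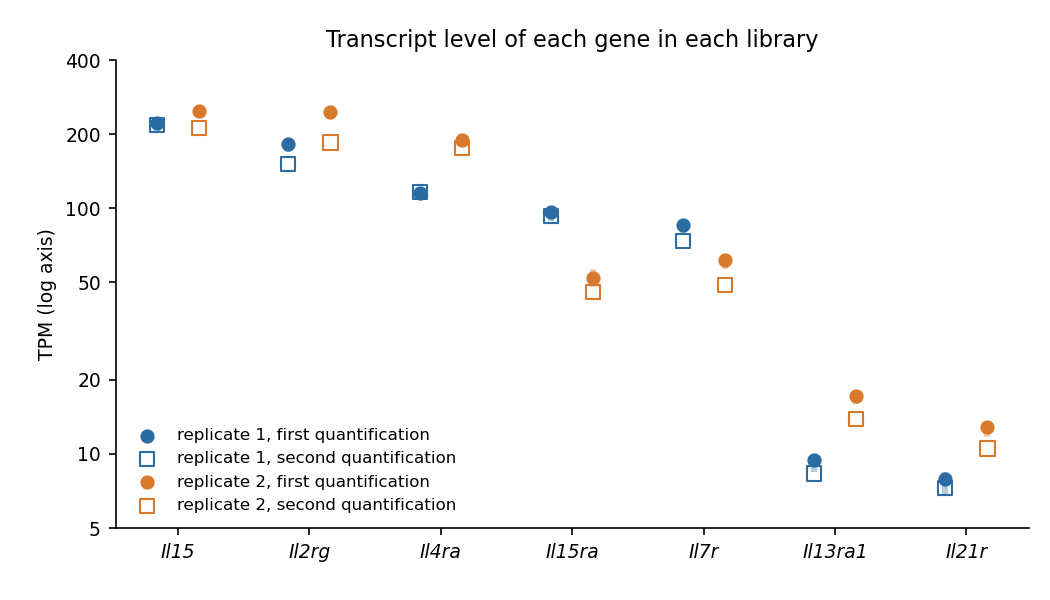
Level of each gene in TPM (log axis) in replicate 1 (blue) and replicate 2 (orange), with filled circles for the first quantification, open squares for the second and pale bars for the authors' credibility bounds. Il15, Il2rg and Il4ra lie above 100 TPM in both libraries by both quantifications, and Il13ra1 and Il21r lie below 20 TPM.

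The libraries were also compared by counts scaled with TMM factors, among genes whose mean count was at least 50, which all 7 passed. On that scale 5 of the genes were higher in replicate 2 and 2 were lower. None of the 7 was 2-fold or more apart, where 3.96% of 10443 genes were. At 1.5-fold or more the count was 5 of 7, against 14.6% of all genes: 4 were higher in replicate 2, where 6.95% of genes were, and 1 was lower, where 7.61% were. Il2rg lay at that threshold, at 1.52-fold, and fell short of it with the second quantification and with TPM plus a pseudocount, which left 4 of 7. Il13ra1 was the furthest apart, at a log2 ratio of 0.97 with a counting interval of 0.85 to 1.09 (exact binomial, 95%). Of the others higher in replicate 2, Il4ra stood at 0.84 (0.81 to 0.87), Il21r at 0.80 (0.63 to 0.98) and Il2rg at 0.60 (0.55 to 0.65), while Il15 stood at 0.38 (0.32 to 0.44). The chains for interleukin-15 and interleukin-7 went the other way, Il15ra at -0.84 (-0.93 to -0.75) and Il7r at -0.43 (-0.48 to -0.38). The median log2 ratio was 0.60 over the 7 genes and 0.01 over all genes, and the median absolute log2 ratio was 0.80 against 0.24. These ratios compare 1 library with 1 library, so no test of them was possible. The markers of granulocytes and of dendritic cells were also lower in replicate 2, at median log2 ratios of -2.91 from 5 genes and -1.18 from 4. Single genes ran from -4.28 to -0.26 among the former and from -2.48 to -0.27 among the latter. The median was 0.14 for the macrophage list and 2.26 for the mast cell and basophil list, the latter from 1 gene. The part of any of these cells in the ratios was not tested.

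**Figure D3:**
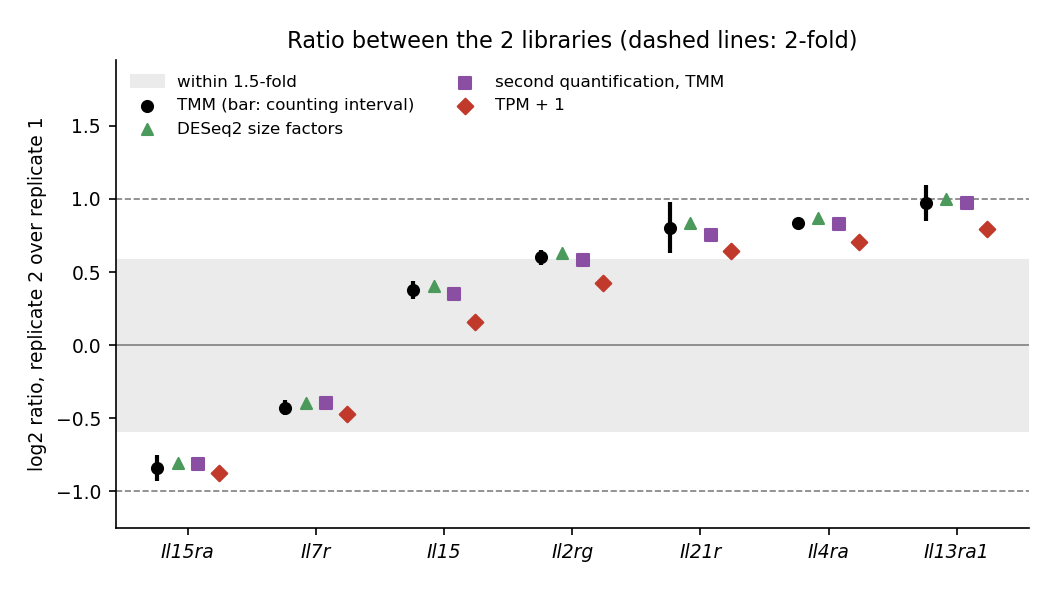
Log2 ratio of replicate 2 over replicate 1 for each gene, by TMM-scaled counts with the 95% counting interval as a bar, by DESeq2 size factors, by the second quantification and by log2(TPM + 1). Il15ra and Il7r lie below 0 and the other 5 genes above it under every scaling drawn, and Il13ra1 comes closest to the dashed 2-fold line.

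The receptor chain genes differed in how much of their mRNA was assigned to transcripts that encode the whole chain. A share below is the percent of the gene's TPM in a transcript. For Il4ra the assignment depended on the quantification. The first put 60.8% and 65.1% in Il4ra-201, the transcript of the whole membrane chain, and 33.4% and 28.1% in Il4ra-205, the transcript with the added stop exon, in replicates 1 and 2. The second put 26.0% and 29.1% in Il4ra-201 and 66.2% and 61.3% in Il4ra-205. The leading transcript was thus a different one in each quantification, while within a quantification the same one led both libraries. Among 3931 genes with several transcripts and a mean of 20 TPM or more, 4.91% changed their leading transcript in both libraries in this way. The share of the leader moved by 30 points or more in both libraries in 1.58%, with Il4ra among them at 34.9 and 36.0 points. In the library where each gene moved less, the median move was 2.33 points, against 34.9 points for Il4ra. In TPM of the first quantification, Il4ra-205 stood at 38.5 and 53.1 and Il4ra-201 at 70.2 and 123. These transcripts also differ at their first base and at their 3′ end, Il4ra-201 being 5256 bases long and Il4ra-205 3696, so reads on the added exon were not the only ones that could set the shares. The part of each difference in the disagreement was not tested. Il4ra-204, a retained-intron transcript that spans the added exon, held another 5.28% and 6.04%.

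For transcripts that skip the membrane-spanning exon in Il2rg and Il21r, the quantifications assigned shares that were closer to each other. As in Il4ra, Il2rg-203 and Il21r-202 also differ from the whole-chain transcripts at their first base and 3′ end. Reads over the skip were therefore not the only ones that could set these shares. Il2rg-201, the transcript of the whole common gamma chain, held 86.6% and 92.01%. Il2rg-203, the exon 6 skip, held 9.29% and 6.98% (7.54% and 5.07% in the second quantification), or 16.9 and 17.1 TPM. Its annotation is short, 597 bases with an incomplete 5′ end, against 1670 for Il2rg-201, so that this level came from 121 and 180 counts, 2.35% and 1.69% of the counts of the gene. The share of the skip was therefore low by counts and several times higher per length. Il21r-201, the transcript of the whole chain, held 76.5% and 71.4%, and Il21r-202, the exon 7 skip, held 14.2% and 17.6% (12.7% and 19.9%), from 47.2 and 140 counts. Il21r-203, annotated for nonsense-mediated decay, the pathway that degrades mRNAs with an early stop codon, also lacks that exon and held 9.29% and 11.0%. Together the Il21r transcripts without the exon held 23.5% and 28.6% of its TPM. The share of such transcripts was thus above that of Il2rg in each library, though at 1.85 and 3.69 TPM their level was below that of Il2rg-203. By counts they had 72.65 and 213 against 121 and 180 for Il2rg-203, so the order of levels in replicate 2 depended on the annotated lengths.

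Il15 mRNA was led by Il15-202, which encodes the whole cytokine precursor of 162 codons and held 52.6% and 56.0% (45.1% and 49.2% in the second quantification). With Il15-201 and Il15-203, which encode the same product behind other leaders, the whole coding sequence held 60.1% and 65.6%. The leader before the start codon was long in all of these, 480 bases with 5 upstream ATG triplets in Il15-202, 1142 bases with 12 in Il15-201 and 398 bases with 7 in Il15-203. Such upstream triplets are known to limit translation of interleukin-15. The transcripts with the cassette exon, Il15-209 and the partial Il15-205, held 29.8% and 26.6% (25.7% and 23.8% in the second quantification). Il15-209, which holds the whole exon with its stop codon, had 9.90% and 11.6%, at 22.0 and 29.0 TPM. Il15-205 had 19.9% and 14.96%, at 44.3 and 37.2 TPM, but its annotation ends after 34 bases of the exon, before the stop codon, so that its reads do not show the stop. By counts the pair held 11.2% and 10.5%, since Il15-205 is annotated with 430 bases only, while the whole coding transcripts held 87.4% and 88.2%. The other 5 transcripts of Il15 have no coding sequence and held 10.1% and 7.77%.

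Il15ra had the most divided mRNA, with 18 annotated transcripts. Il15ra-201, which encodes the whole chain of 263 codons, led with 40.04% and 37.5% (30.9% and 31.4% in the second quantification). Il15ra-215, a partial annotation with the shortened exon 2, held 14.6% and 20.0%. The transcripts with the shortened exon, Il15ra-214 included, held 18.4% and 23.7% by TPM and 7.51% and 8.31% by counts, and the retained-intron transcripts held 19.5% and 19.4%, Il15ra-216 among them at 8.71% and 7.26% (18.7% and 15.3%). Il15ra-207, which starts inside the gene, held 6.17% and 3.70% (12.01% and 8.17%). By first exon, the 7 transcripts from the downstream start held 67.6% and 69.8%, the 8 from the upstream start 16.4% and 19.2% and the 3 that start inside the gene 16.02% and 11.0%. The second quantification gave these classes 55.6% and 56.7%, 12.4% and 17.3%, and 31.9% and 26.1%, so that the order of the upstream and internal classes depended on the quantification. In the first, the level of each class was lower in replicate 2, from 65.1 to 36.4 TPM, from 15.8 to 10.04 TPM and from 15.4 to 5.72 TPM. The lower Il15ra level in replicate 2 was thus shared by all 3 first-exon classes.

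Il7r was almost wholly in Il7r-201, the transcript of the whole chain, with 90.4% and 87.6%. Il7r-203, a short non-coding transcript of 359 bases from a distal first exon, held 6.81% and 10.9% of TPM, but from 13.0 and 22.7 counts. Il7r-204, with the shortened exon 7, held 2.46% and 1.02%. Il7r-201 and Il7r-204 are the annotated coding transcripts of Il7r and both have 8 exons, so skipping of a whole exon in the coding mRNA could not be measured. Il13ra1, with its only transcript, gave no shares. The transcripts Il2rg-203, Il4ra-204, Il7r-204, Il15-201 and Il15-203 lie under the 10% share used to choose the transcripts named, and were named for their exons after their values were seen, as was Il15ra-214.

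**Figure D4:**
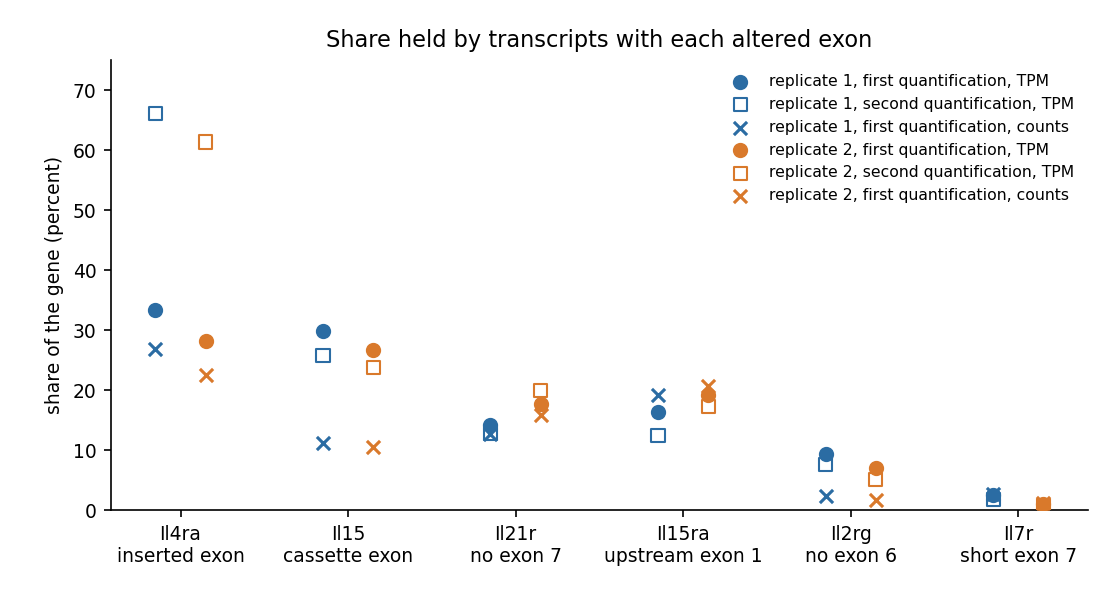
Share of each gene's total, in percent, in transcripts with an altered exon or, for Il15ra, the upstream first exon, in replicate 1 (blue) and replicate 2 (orange), as TPM of the first quantification (filled circles), TPM of the second (open squares) and counts of the first (crosses). The quantifications are far apart for Il4ra, at 33.4% against 66.2% in replicate 1, and crosses lie well under the circles for Il15 and Il2rg, whose altered transcripts are short.

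No reads were assigned to overlapping genes. Gm20489, which overlaps Il2rg on the same strand, and Gm44876, antisense to Il4ra, both had 0 counts in each library, which allows up to 3 counts by counting error alone. These are expected counts, so reads on shared sequence could have been assigned to the receptor genes instead.

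Among the ligands of these receptors, Il15 was the abundant one. Of 8 ligand genes, 2 stood at 1 TPM or more in both libraries, Il15 and Tslp, the gene of thymic stromal lymphopoietin, at 2.30 and 2.16 TPM. Il7 stood just under that level at 0.78 and 0.72 TPM, from 26 and 33 counts. Il2 and Il9 had 0 counts, which allows up to 3 counts by counting error alone. Il13 had 0 and 1 counts and Il21 had 3 and 0, so both were close to 0. Il4 had 0 and 6 counts by the first quantification, but the second gave it 5.77 and 5.86 TPM. Nearly all of that lay on Il4-202, annotated as non-coding, with 48 and 83 estimated counts, and the coding transcripts of Il4 had at most 1 count.

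The other chains split in the same way into present and nearly absent. Of 5 partner chain genes, 2 stood at 1 TPM or more in both libraries, Crlf2, given above, and Il2ra, the chain that raises affinity for interleukin-2, at 1.75 and 1.44 TPM. Il2rb, the signalling chain through which cells respond to interleukins 2 and 15, had 15 counts in replicate 1 and 1 in replicate 2 (0.17 and 0.01 TPM). Il9r, for interleukin-9, and Il13ra2, a decoy chain for interleukin-13, had 0 counts. The transcripts for interleukin-15 and for the chain that presents it were thus abundant, while that of the chain through which cells respond to it was close to 0.

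The 8 genes measured here of the kinases and STAT factors coupled to these receptors all stood at 1 TPM or more. None was 1.5-fold or more apart between the libraries, where 14.6% of all genes were, a share at which few of 8 would be. The kinase genes stood at 124.3 ± 11.3 TPM (Jak1), 102.6 ± 5.23 TPM (Jak2), 25.4 ± 1.34 TPM (Tyk2) and 9.02 ± 1.89 TPM (Jak3; SD, n = 2 for each). Jak3, the partner kinase of the common gamma chain, was the lowest of them, at 10.4 and 7.68 TPM against 182 and 245 TPM for Il2rg. The STAT genes stood at 130.3 ± 5.76 TPM (Stat5a), 93.6 ± 1.00 TPM (Stat6), 66.3 ± 10.8 TPM (Stat3) and 19.7 ± 2.06 TPM (Stat5b; SD, n = 2 for each). The median log2 ratio of the 8 was 0.04, against 0.60 for the 7 genes described here.

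**Figure D5:**
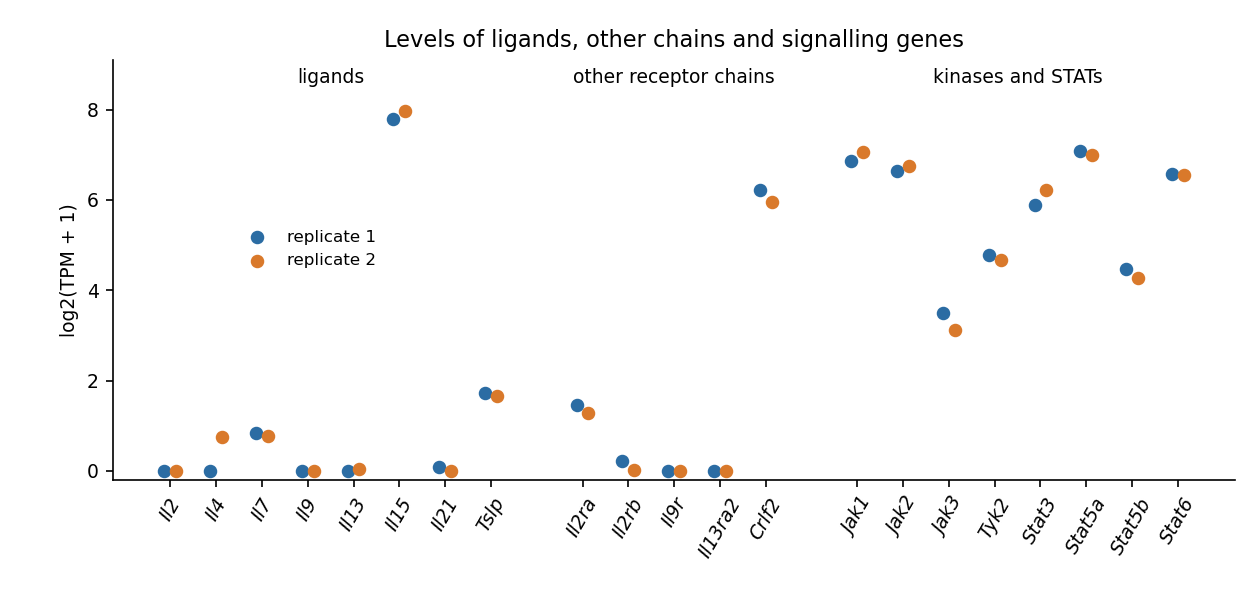
Levels of the ligand genes, the other receptor chain genes and the kinase and STAT genes as log2(TPM + 1), in replicate 1 (blue) and replicate 2 (orange). Il15 stands apart among the ligands and Crlf2 among the other chains, while the kinase and STAT genes drawn all lie above 3 on this axis.

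Of 11 adaptor and brake genes, 10 stood at 1 TPM or more in both libraries, and Irs1 had 0 counts. They were led by Socs3, a feedback inhibitor of cytokine receptors, at 617 and 589 TPM, and the phosphatase genes Ptpn1 at 73.0 and 161 TPM and Ptpn6 at 104 and 107 TPM. Ptpn1 was much higher in replicate 2 in TPM, but on TMM-scaled counts its log2 ratio was 0.58. In that list 10 genes had a mean count of 50 or more, and 2 of them were 2-fold or more apart. Over all genes with that mean count the share was 3.96%. The 2 genes, both higher in replicate 2, were the repressor gene Bcl6 at 1.09 and the feedback inhibitor gene Socs2 at 1.12. They are named because of those values. Socs2 rested on 51 and 151 counts, and with the second quantification it stood at 0.99, just under 2-fold. Of 15 genes known as targets of interleukin-4 and Stat6, 8 stood at 1 TPM or more in both libraries, led by the mannose receptor gene Mrc1 at 286 and 221 TPM, the lectin gene Clec10a at 36.8 and 42.7 TPM and the chemokine gene Ccl22 at 49.1 and 27.9 TPM. Arg1 and Retnla, known as strongly induced by interleukin-4 in mouse macrophages and named for that reason, had 0 counts in both libraries. Of 7 genes of interleukin-15 induction, presentation and shedding, all 7 stood at 1 TPM or more in both libraries, where 18.5% of all mouse genes did. That list includes Il15 and Il15ra, already described above. Besides Il15, the highest were Irf1, a transcription factor gene known to act on Il15, at 799 and 753 TPM and the interferon receptor gene Ifnar2 at 187 and 160 TPM.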

How the data were processed

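Per the labels, the 2 libraries, replicates 1 and 2 of the only group, were made from 1 µg of RNA each, with sizes of 250 to 400. For each, the authors deposited gene and transcript tables of expected counts, TPM and transcript shares in percent, with the column names of RSEM (the first quantification), and a transcript table of estimated counts and TPM, with the column names of kallisto (the second). Per the deposited descriptions the first came from a transcriptome alignment and the second from 4 read files, both with assembly mm10 and GENCODE M21. Per the file headers the tables also hold credibility bounds of TPM (other than the confidence intervals given here), with no level stated. Versions and strand are not given in the sources used here.

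Entries that are no mouse gene, 0.141% and 0.134% of counts, were left out of ratios. After rounding of the expected counts, edgeR 4.0.16 in R 4.3.3 gave a common dispersion (intercept-only model, genes with at least 10 counts in each library), whose square root is the spread. Ratios used TMM factors and a mean count of at least 50. The second table was summed by gene. Coordinates, exons, reading frames and sequences came from the same annotation release and its transcripts. Intervals are exact Clopper-Pearson intervals at 95%, and cover counting error of reads only. PCR copies of a molecule cannot be told from new molecules, so for molecules the intervals may be too narrow. Ratios and spread were tested on simulated data. The other steps used scipy 1.17.1, pandas 2.3.3, numpy 2.4.6 and Python 3.11.15, and the plots matplotlib 3.10.9.

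The 7 genes and the 14 lists, with 115 genes, were chosen with earlier results of these data known. Named were the 7 genes, their transcripts with 10% or more of the gene's TPM in any library and quantification, all ligand, partner chain, kinase and STAT genes, and the 3 genes of highest mean TPM in each other list; other names are said to be outside this rule. With 2 libraries a correlation of levels can only be 1 or -1, so no gene was named for a like pattern. Some genes of the lists as first written are not reported here and were left out of their counts. Alternatives were DESeq2 1.42.0 size factors, log2 of TPM plus a pseudocount, the second quantification, posterior mean TPM, TPM without mitochondrial genes, other minimums, shares of counts and each library alone.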

Additional observations from a re-analysis of the deposited data

How the results depend on the processing

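Of 197 values recomputed with other settings, 172 stayed within the spread or the 1.5 times allowed, 25 moved and 0 reversed. Part of this tally was fixed in advance. For the level and leading share of a gene, the spread allowed was the SD of the same 2 libraries. Leaving out 1 of them always shifts the mean by less than that SD, so those values could only stay. The share of Il13ra1, with its only transcript, could not move under any setting. Levels, shares and counts also have no sign to reverse. The 42 ratios of single genes between the libraries kept their sign under every scaling and minimum run. A minimum cannot change the ratio of a single gene, so the values under other minimums only repeated the main ones. TPM of the second quantification was not among the scalings, and there Il15 was slightly lower in replicate 2, at 218 and 211 TPM. Of the 7 genes, 5 were 1.5-fold or more apart, and 4 with the second quantification, with log2(TPM + 1) or with log2(TPM + 0.1). Over all genes, those 2-fold or more apart numbered 414, and 230 with log2(TPM + 1), 186 at a mean count of 200 or more, and 1521 at 1.5-fold. At 5 TPM the counts of list genes went from 2 to 1 for ligands, 2 to 1 for partner chains, 1 to 0 for B cell, 2 to 0 for dendritic cell and 5 to 3 for granulocyte markers. Dendritic cell markers numbered 1 with the second quantification. With each library alone they numbered 2 to 4, granulocyte markers 5 to 8 and mast cell and basophil markers 0 to 1, the highest dendritic cell and granulocyte counts without replicate 2 and the mast cell count of 1, Kit, without replicate 1. The mean share of Il4ra-201 was 63.0%, 27.5% with the second quantification and 73.5% as a share of counts, and that of Il15-202 was 54.3%, 47.2% and 71.1%. Causes were not tested. No paired analysis was possible because the labels give 1 group. Depth limits the transcripts with under 200 counts, such as Il2rg-203 and Il21r-202, more than the gene levels.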
